A study of Rattus norvegicus with 6 samples.

Results

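TGF-beta and BMP signalling was examined through the genes for its ligands, receptors, antagonists, Smad proteins and early target genes. The members were 47 genes listed by name, of which 44 had a probe set naming 1 gene symbol, out of 10411 genes so represented. Tgfbr2, Bmpr1b and Chrd were not analysed here. Where a gene had several probe sets, the brightest on average was read.

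The tissue was intact cerebral resistance artery of Dahl rats, a strain bred for its blood pressure response to dietary salt. From 7 weeks of age the rats ate a low salt chow (0.4% NaCl) or a high salt chow (8% NaCl). All rats had eaten the 0.4% chow before that, and the labels name no other treatment, allele or agent. Each array carried RNA pooled from 3 rats, with 3 arrays and 9 rats per diet. The labels give 12 weeks on the low salt diet, and both 11 and 12 weeks on the high salt diet. Genes of the contractile apparatus, the defining markers of smooth muscle, were present on every array, with a mean over 8 markers from 11.31 to 11.48 on high salt and from 11.12 to 12.02 on low salt. Values are log2 units throughout, and differences are high salt minus low salt with the moderated standard error (SE) of limma.

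The TGF-beta family consists of secreted dimers that bring type I and type II serine kinase receptors together. The active type I receptor phosphorylates Smad proteins, which join the common partner Smad4 and enter the nucleus. TGF-betas and activins act mainly through Smad2 and Smad3, and bone morphogenetic proteins (BMPs) through Smad1, Smad5 and Smad9. In arteries the family is known for its part in vessel formation, the smooth muscle phenotype and matrix production, and inherited defects of endothelial BMP receptors cause vascular malformations and pulmonary arterial hypertension.

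Of the 44 members, 33 had higher mean values on the high salt diet and 11 had lower ones, and the median of the 44 differences was 0.19. Over all 10411 genes 60.0% were higher, with a median of 0.07. No member passed an adjusted p of 0.05 (limma, Benjamini-Hochberg over all probe sets; 0 of 44 members, against a background of 0% of 15866 probe sets). At an unadjusted limma p below 0.05 stood 2 members, Tgfbr3 and Id3, where 6.43% of all genes did. The diets did not overlap, array against array, for 2 members higher after high salt (Id3 and Bambi; 8.64% of all genes) and 1 lower (Tgfbr3; 3.32% of all genes). A difference of more than 2 SE was seen for 5 members, or Tgfbr3, Id3, Smad3, Bmp7 and Bambi, and for 12.7% of all genes. In the unweighted fit of all 6 arrays without a block these shares were near or below those of all genes. At an unadjusted limma p below 0.05 stood 12 members (27.3%, against 20.0% of all genes) without low salt replicate 2, 11 (25.0%, against 18.7%) with array weights, 4 (9.09%, against 5.47%) with the replicate number as a block, and 0 without low salt replicate 3 or without high salt replicate 1. After median centring the diets did not overlap for 1 member higher (Id3; 4.01% of all genes) and 3 lower (Tgfbr3, Bmp3 and Gdf15; 13.9% of all genes), and after quantile normalization for Id3 and Tgfbr3 (4.74% and 7.66% of all genes). The array medians ran from 7.96 to 8.17, and the size of the shift in the members depended on the scaling. More members were higher than lower under each scaling. Over all genes the direction turned, with 42.8% higher after median centring and 46.3% after quantile normalization. After each array was centred on its median 25 members were higher and 19 lower, while the median of all genes moved to -0.06, and after quantile normalization 29 were higher and 15 lower. Relative to the median of all genes 29 members lay above and 15 below under each of these 3 scalings. With 1 array left out the split ran from 23 and 21 without high salt replicate 1 to 34 and 10 without high salt replicate 2, where the median difference was 0.27. The median difference was 0.06 after median centring, 0.05 after quantile normalization. Leaving out low salt replicate 2 gave 0.09, and leaving out high salt replicate 1 gave 0.10.

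**Figure D1:**
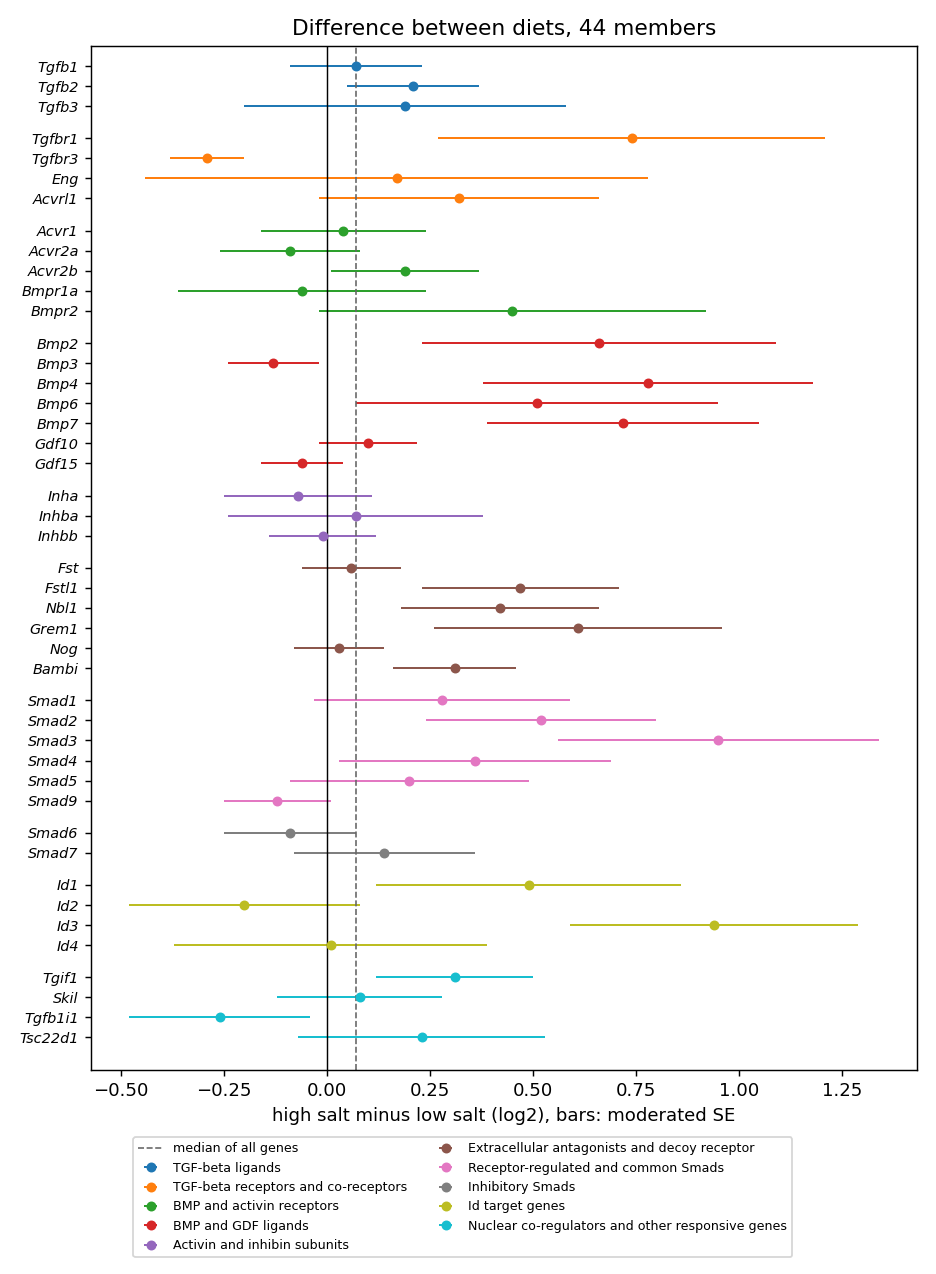
Difference between diets for each of the 44 members, drawn on the horizontal axis in log2 units (positive where high salt was higher), with bars for the moderated SE (3 arrays per diet) and colours for roles. The dashed line is the median of all genes at 0.07. The point for Tgfbr3 lies furthest left, at -0.29, and those for Smad3 (0.95) and Id3 (0.94) furthest right.

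The low salt arrays differed among themselves more than the high salt arrays did. For 35 of 44 members the SD over the low salt arrays was larger than that over the high salt arrays (medians 0.41 and 0.21), as it was for 71.0% of all genes. Low salt replicate 1 held the lowest of the 6 values for 16 of 44 members, low salt replicate 2 for 12, low salt replicate 3 for 5 and a high salt array for 11. The shares over all genes were 36.5%, 23.1%, 7.85% and 32.5%. Low salt replicate 1 also stood apart as a whole array. Its correlations with the high salt arrays were 0.926 to 0.945, against 0.976 to 0.988 for low salt replicates 2 and 3. Its upper quartile, at 9.22, was the lowest of the 6 arrays, and its lower quartile, at 6.65, was the highest. Why this array stood apart was not tested. The mean of 9 astrocyte markers was 8.83 and 8.15 on low salt replicates 1 and 3, 10.54 on replicate 2, and 10.16 to 10.58 on the high salt arrays. Their part in the differences between diets was not tested. In whole arteries, fewer cells of a type and less RNA per cell cannot be told apart.

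**Figure D2:**
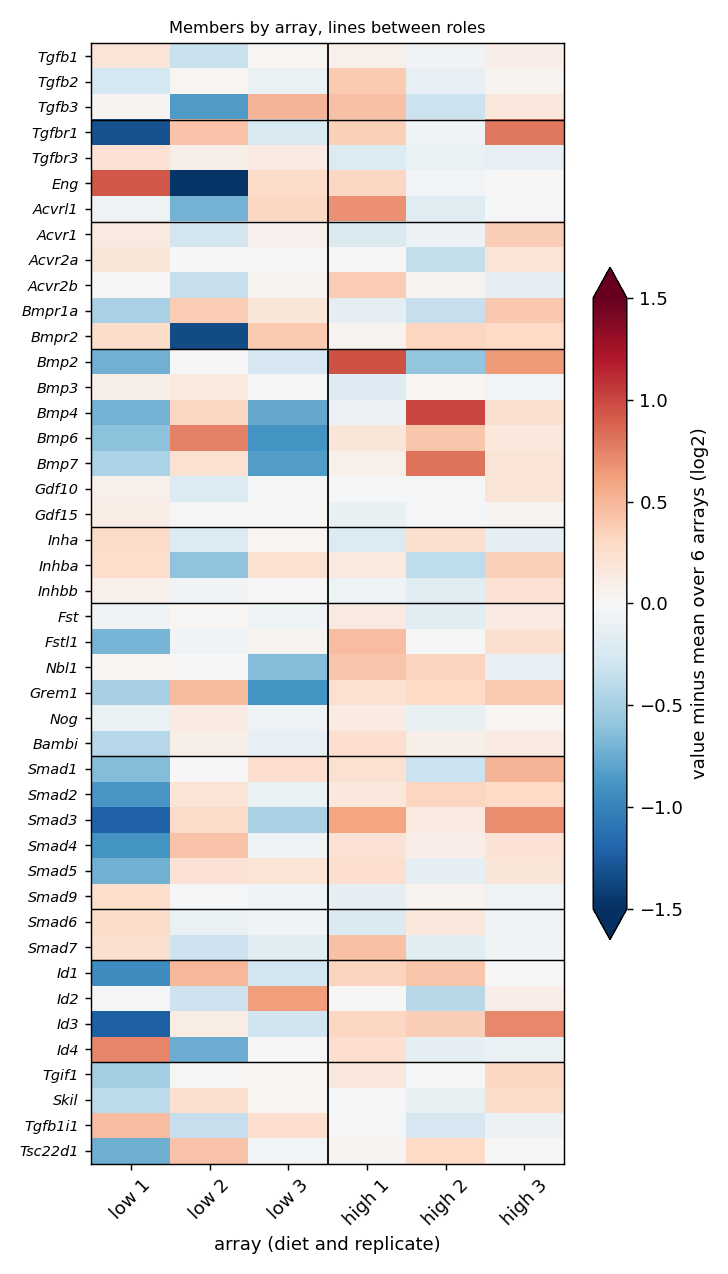
Value of each member on each array, shown as its distance in log2 units from that member's mean over the 6 arrays (colour, with values past 1.5 at the ends of the scale). Rows are grouped by role and columns are arrays. Dark blue cells, far below the member's mean, lie on low salt replicate 1 for Smad3 and Id3 and on low salt replicate 2 for Eng and Bmpr2.

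Among the ligands of the TGF-beta branch, all 3 isoforms were measured and none was separated by diet. Tgfb1, the isoform best known in fibrosis and immune control, stood at 7.47, 6.94 and 7.30 on low salt and 7.35, 7.22 and 7.37 on high salt, a difference of 0.07 ± 0.16. Tgfb2 stood at 8.31, 8.60 and 8.47 on low salt and 8.96, 8.45 and 8.62 on high salt, a difference of 0.21 ± 0.16. Tgfb3 stood at 11.53, 10.64 and 12.00 on low salt and 11.93, 11.16 and 11.65 on high salt. The groups overlapped for each isoform, and for Tgfb3 the low salt arrays alone spanned more than the high salt arrays did. The difference for Tgfb3 was 0.19 ± 0.39, and it stood at -0.19 without low salt replicate 2. For Tgfb1 it was -0.07 without that array and -0.06 after median centring. A second probe set of Tgfb2 gave 0.02 ± 0.19.

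Tgfbr3 had the lowest p of all members in the fit of all 6 arrays. It encodes betaglycan, a membrane proteoglycan without kinase activity that presents TGF-beta to the signalling receptors and also binds inhibin. Its values were 8.01, 7.88 and 7.91 on low salt and 7.58, 7.69 and 7.66 on high salt. Every high salt array was below every low salt array, and the spread within a diet was small (SD 0.07 on low salt and 0.06 on high salt, n = 3 each). The difference was -0.29 ± 0.09, or 1.22-fold lower after high salt, with an unadjusted p of 0.0193 and an adjusted p of 0.803 (limma, Benjamini-Hochberg). Over the alternatives run the difference lay between -0.42 and -0.25 and the adjusted p (limma, Benjamini-Hochberg) between 0.212 and 0.999. A second, dimmer probe set gave 7.16, 6.75 and 6.64 on low salt and 6.61, 6.47 and 6.40 on high salt. Its groups did not overlap either, and its difference was -0.35 ± 0.16. Its mean level of 6.67 lay below the 40th percentile of all probe sets at 7.52, and that of the brighter probe set was 7.79. Lower values without overlap were commoner among dim genes. They were found for 346 of 10411 genes, of which 134 were among the 7230 at or above that percentile. At the brighter probe set, the mean of the high salt arrays was lower than each low salt array by a similar amount (differences of -0.37, -0.24 and -0.27). The 250 bases before the RefSeq start of Tgfbr3 (chr14:2634044-2634293, plus strand, GRCr8) are shown because the gene separated the diets with both probe sets, with the letters GGCGCC, a GC-rich element bound by Smads, in capitals.
Tgfbr3: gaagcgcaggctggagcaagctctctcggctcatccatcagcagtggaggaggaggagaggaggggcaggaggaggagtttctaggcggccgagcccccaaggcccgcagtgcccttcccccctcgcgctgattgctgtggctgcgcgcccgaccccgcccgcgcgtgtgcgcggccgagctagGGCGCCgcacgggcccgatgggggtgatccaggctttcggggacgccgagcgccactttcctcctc

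The differences of the other TGF-beta receptors depended on single arrays. Tgfbr1, the type I kinase receptor for TGF-beta, stood at 9.04, 10.78 and 10.12 on low salt and 10.71, 10.30 and 11.14 on high salt. Its difference of 0.74 ± 0.47 (1.67-fold) rested largely on low salt replicate 1, and it was 0.27 without that array. A dim second probe set of Tgfbr1 gave -0.01 ± 0.13. Endoglin (Eng), the co-receptor that endothelial cells use for BMPs, stood at 11.35, 8.94 and 10.70 on low salt and 10.72, 10.37 and 10.41 on high salt. Low salt replicate 2 lay far below all other arrays, and the difference of 0.17 ± 0.61 turned to -0.53 without it. Acvrl1, the type I receptor that partners endoglin in endothelium, stood at 8.90, 8.27 and 9.29 on low salt and 9.66, 8.80 and 8.96 on high salt, again with the lowest value on low salt replicate 2. Its difference was 0.32 ± 0.34, with 0.04 when that array was left out and 0.06 without high salt replicate 1.

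Of the 5 BMP and activin receptors, 3 were higher, 2 were lower and the diets overlapped for each. Bmpr2, the type II BMP receptor known from inherited pulmonary hypertension, stood at 9.89, 8.28 and 10.01 on low salt and 9.67, 9.94 and 9.91 on high salt. As for endoglin, only low salt replicate 2 stood apart, and the difference of 0.45 ± 0.47 was -0.11 without it. The type I receptor Bmpr1a showed the opposite array pattern, with 8.99, 9.86 and 9.66 on low salt and 9.34, 9.13 and 9.88 on high salt, a difference of -0.06 ± 0.30. The activin type II receptors Acvr2a (-0.09 ± 0.17) and Acvr2b (0.19 ± 0.18) and the type I receptor Acvr1 (0.04 ± 0.20) differed by less than 2 SE. The sign for Acvr1 turned after median centring.

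**Figure D3:**
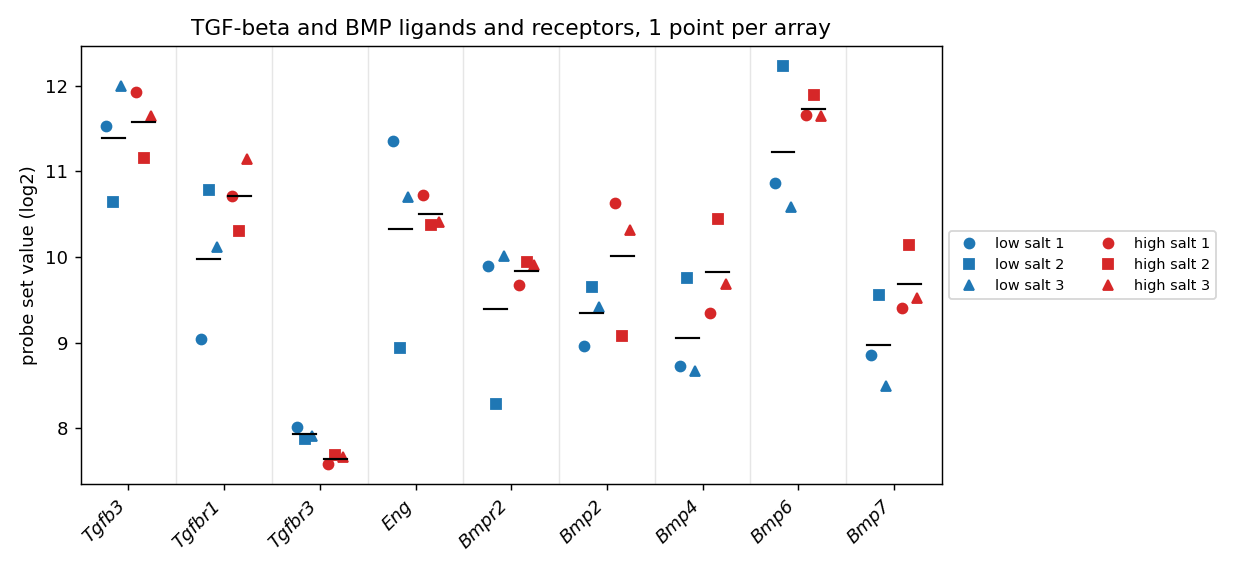
Probe set value in log2 units (vertical axis) of 9 ligands and receptors on each array, with blue points for low salt, red points for high salt, a symbol for each replicate number and a black line at the mean of each diet. Red and blue points are separate only for Tgfbr3. The blue square (low salt replicate 2) lies lowest for Eng at 8.94 and for Bmpr2 at 8.28. Heights are not comparable between genes.

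Endothelial genes outside the pathway shared the low value of low salt replicate 2 only in part. Pecam1, an adhesion molecule of endothelium, stood at 8.69, 6.86 and 8.66 on low salt and at 8.13, 8.18 and 8.10 on high salt. Vwf, the von Willebrand factor, stood at 12.48, 11.05 and 12.38 on low salt and at 12.46, 12.10 and 11.99 on high salt. In both, low salt replicate 2 was the lowest array by a wide gap. Cldn5, a tight junction gene of brain endothelium, stood at 12.70 on that array, within the range of 12.50 to 13.21 of the others, and the receptor Kdr stood at 11.02, the highest of the 6. Over all 6 endothelial markers measured the mean was 9.52 on low salt replicate 2, 9.77 and 9.96 on the other low salt arrays, and 9.90 to 10.10 on high salt. The smooth muscle marker mean was lowest on the same array, at 11.12. The part of cell makeup in the values of Eng, Acvrl1 and Bmpr2 was not tested.

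**Figure D4:**
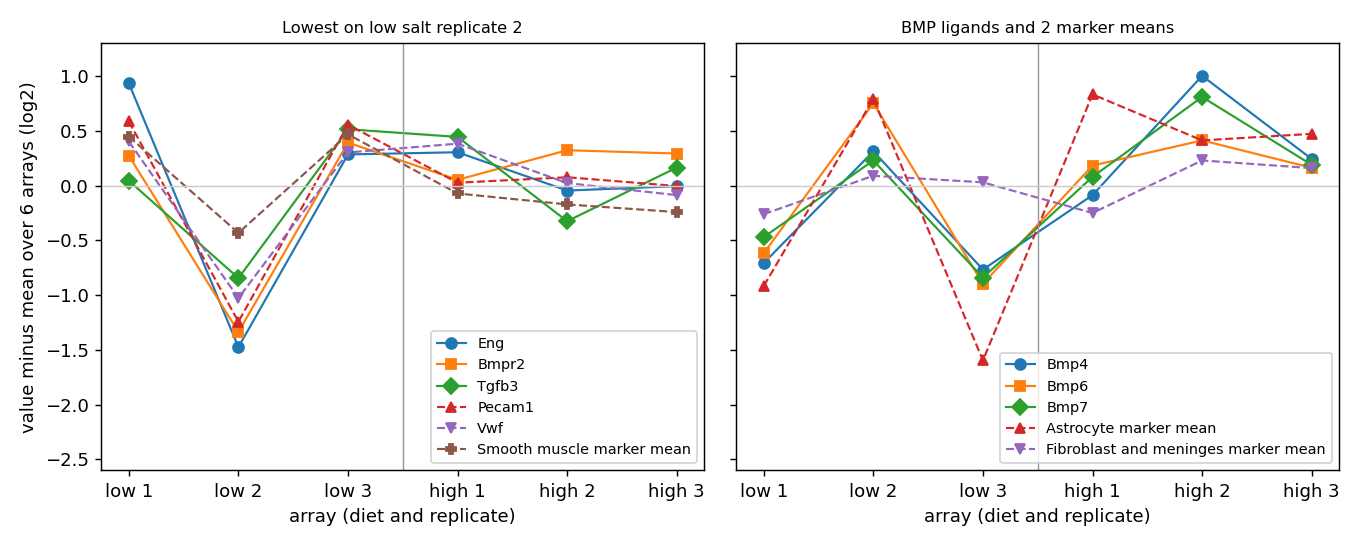
Distance in log2 units from the mean over the 6 arrays (vertical axis), array by array (horizontal axis), for members (solid lines) and cell type markers (dashed lines). On the left Eng, Bmpr2, Tgfb3, Pecam1, Vwf and the smooth muscle marker mean reach their lowest value on low salt replicate 2. On the right Bmp4, Bmp6, Bmp7 and the astrocyte marker mean are lowest on low salt replicates 1 and 3, while the fibroblast and meninges marker mean, at 12.15 on low salt replicate 3, is not. The members, Pecam1 and Vwf were chosen for these patterns after their values were seen.

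The BMP ligands had a median difference of 0.51 over 7 genes, with 5 higher, 2 lower and the diets overlapping for each. Bmp7, a ligand with roles in kidney and bone, stood at 8.86, 9.56 and 8.49 on low salt and 9.41, 10.14 and 9.52 on high salt, a difference of 0.72 ± 0.33 (1.65-fold). Bmp4, a ligand that endothelial cells make under disturbed flow, stood at 8.73, 9.75 and 8.67 on low salt and 9.35, 10.44 and 9.68 on high salt, a difference of 0.78 ± 0.40 (1.71-fold). Low salt replicate 2 lay among the high salt arrays for both genes, while low salt replicates 1 and 3 lay below all of them. With 1 array left out the difference ranged from 0.47 without high salt replicate 2 to 1.13 without low salt replicate 2 for Bmp4, and from 0.48 without low salt replicate 3 to 1.02 without low salt replicate 2 for Bmp7. The unadjusted p was 0.0747 for Bmp7 and 0.104 for Bmp4, and the adjusted p 0.803 for both (limma, Benjamini-Hochberg).

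Bmp6, known as the signal of liver endothelium that sets iron uptake, repeated this order of arrays. It stood at 10.86, 12.23 and 10.58 on low salt and 11.66, 11.89 and 11.64 on high salt, a difference of 0.51 ± 0.44. Here low salt replicate 2 was the highest of all arrays, and the difference ranged from 0.19 without low salt replicate 3 to 1.01 without low salt replicate 2. A second probe set of Bmp6 gave 0.87 ± 0.46. The astrocyte marker mean had the same low arrays, and its part in the BMP values was not tested. The mean of 7 fibroblast and meninges markers did not follow this order, at 11.86, 12.21 and 12.15 on low salt and 11.87 to 12.35 on high salt. Among these markers Pdgfra did follow it, at 11.39, 12.66 and 11.79 on low salt and 12.30 to 12.62 on high salt. So did Kdr among the endothelial markers, whose mean did not, at 8.83, 11.02 and 8.53 on low salt and 10.13 to 10.83 on high salt. The part of these cells in the BMP values was not tested either.

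Bmp2, an osteogenic ligand, followed another order. It stood at 8.96, 9.65 and 9.42 on low salt and 10.63, 9.08 and 10.31 on high salt, so that high salt replicate 2 lay within the low salt range. The difference was 0.66 ± 0.43, 1.12 without high salt replicate 2 and 0.35 without high salt replicate 1. It was 0.41 as the mean of the gene's probe sets. The remaining ligands were dim. Bmp3, an atypical member that opposes other BMPs (-0.13 ± 0.11), Gdf10, its close relative (0.10 ± 0.12), and the stress-induced Gdf15 (-0.06 ± 0.10) had mean levels from 6.12 to 6.33, below the 40th percentile of all probe sets at 7.52. The activin and inhibin subunits Inha (-0.07 ± 0.18), Inhba (0.07 ± 0.31) and Inhbb (-0.01 ± 0.13) were also below that level, and the signs of Inhba and Inhbb turned under another scaling. Inhba, the brightest subunit, stood at 7.53, 6.66 and 7.49 on low salt and 7.41, 6.88 and 7.62 on high salt.

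All 6 extracellular antagonists and decoys measured had a difference above 0, from 0.03 to 0.61, with a median of 0.36. Bambi, a receptor-like protein without a kinase that blocks TGF-beta receptor complexes and is itself induced by the pathway, stood at 8.30, 8.81 and 8.60 on low salt and 8.98, 8.82 and 8.85 on high salt. The diets did not overlap, but low salt replicate 2 and high salt replicate 2 lay side by side, and the groups overlapped after median centring or quantile normalization. The difference was 0.31 ± 0.15, with an unadjusted p of 0.0909 (limma), and it was 0.18 after median centring, 0.14 after quantile normalization and 0.17 without low salt replicate 1. The 250 bases before the start of Bambi (chr17:58821004-58821253, minus strand, GRCr8) are given for comparison with Tgfbr3, with GGCGCC again in capitals. Among members whose windows hold these letters, only Tgfbr3 and Bambi did not overlap at the brightest probe set, and the others did. Tgfbr3 and Bambi differed in opposite directions, and the window of Id3 lacks the letters.
Bambi: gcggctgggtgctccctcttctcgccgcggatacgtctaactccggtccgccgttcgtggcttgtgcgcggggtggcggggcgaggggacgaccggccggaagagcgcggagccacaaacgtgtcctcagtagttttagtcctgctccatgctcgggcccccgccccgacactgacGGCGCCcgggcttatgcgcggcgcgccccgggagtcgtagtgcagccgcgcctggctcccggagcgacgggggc

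Fstl1, a secreted glycoprotein related to follistatin, stood at 11.42, 12.06 and 12.16 on low salt and 12.58, 12.12 and 12.35 on high salt. Only high salt replicate 2 reached into the low salt range. The difference was 0.47 ± 0.24 (1.38-fold), and the other probe sets gave 0.52 ± 0.31 and 0.41 ± 0.24, all 3 of the same sign. Without low salt replicate 1 the difference was 0.24. Nbl1, an antagonist of the DAN family, stood at 10.64, 10.61 and 9.97 on low salt and 11.03, 10.95 and 10.49 on high salt, a difference of 0.42 ± 0.24 that was 0.18 after quantile normalization and 0.20 when low salt replicate 3 was left out. Grem1, another DAN family antagonist, was dim at 5.57, 6.55 and 5.18 on low salt and 6.30, 6.37 and 6.46 on high salt, with low salt replicate 2 above every other array. Follistatin (Fst), which binds activins, differed by 0.06 ± 0.12 and noggin (Nog), which binds BMPs, by 0.03 ± 0.11. Both signs turned after median centring.

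None of the 6 Smads that carry the signal was separated by diet at its brightest probe set. Smad3, the DNA-binding Smad of the TGF-beta branch, stood at 8.22, 9.72 and 8.95 on low salt and 10.03, 9.57 and 10.14 on high salt. The difference of 0.95 ± 0.39 (1.93-fold) was the highest of all members in the fit of all 6 arrays, with an unadjusted p of 0.0535 and an adjusted p of 0.803 (limma, Benjamini-Hochberg). Low salt replicate 2 lay above high salt replicate 2, and the high salt mean exceeded the low salt arrays by 1.69, 0.20 and 0.96 in turn. The difference was 0.58 without low salt replicate 1 and 0.50 as the mean of the gene's probe sets. A dim second probe set of Smad3, with a mean level of 6.02, gave 0.05 ± 0.11. Smad2, its partner in the same branch, stood at 8.66, 9.74 and 9.43 on low salt and 9.69, 9.86 and 9.83 on high salt, a difference of 0.52 ± 0.28 that was 0.21 without low salt replicate 1.

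The common partner Smad4 stood at 8.88, 10.21 and 9.72 on low salt and 10.00, 9.88 and 10.00 on high salt, a difference of 0.36 ± 0.33. Smad1, the brightest, stood at 9.59, 10.24 and 10.49 on low salt and 10.47, 9.92 and 10.75 on high salt. The BMP-branch Smads Smad1 (0.28 ± 0.31) and Smad5 (0.20 ± 0.29) overlapped in the same way. Low salt replicate 1 was lowest for both, at 9.59 and 9.27, and the difference for Smad1 was 0.02 without that array. For 5 of these 6 Smads that array was the lowest of all, as it was for 47.3% of all genes above the 40th percentile of level. Smad9, the remaining BMP-branch Smad, was dim and differed by -0.12 ± 0.13. Other probe sets of Smad4 (-0.12 ± 0.20) and Smad5 (-0.29 ± 0.18 and -0.16 ± 0.10), all dimmer, were opposite in sign to the main ones. A dim second probe set of Smad1 gave 0.16 ± 0.09 without overlap, at 6.10, 5.93 and 6.04 on low salt and 6.24, 6.20 and 6.13 on high salt.

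The inhibitory Smads, which are induced by the pathway and block the receptors, did not separate at their brightest probe sets. Smad6, which acts mainly on the BMP branch, stood at 8.26, 7.88 and 7.93 on low salt and 7.77, 8.14 and 7.91 on high salt, a difference of -0.09 ± 0.16. Smad7, which blocks both branches, stood at 7.68, 7.13 and 7.28 on low salt and 7.87, 7.27 and 7.38 on high salt, a difference of 0.14 ± 0.22. The replicates within a diet spanned more than the diets differed for both genes. The dim other probe sets of Smad7 gave -0.11 ± 0.09 and -0.05 ± 0.09. In the former the diets did not overlap, with 6.17, 5.99 and 6.06 on low salt and 5.94, 5.96 and 5.98 on high salt.

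The 4 Id genes encode helix-loop-helix proteins that cannot bind DNA and hold back differentiation factors, and Id1 to Id3 are textbook early targets of BMP signalling. They differed from one another. Id3 stood at 8.99, 10.33 and 9.92 on low salt and 10.52, 10.59 and 10.94 on high salt. Every high salt array was above every low salt array, also after median centring and after quantile normalization. The difference was 0.94 ± 0.35 (1.91-fold), with an unadjusted p of 0.0390 and an adjusted p of 0.803 (limma, Benjamini-Hochberg), and the adjusted p ran from 0.214 to 0.999 over the alternatives (limma, Benjamini-Hochberg). It was 0.56 without low salt replicate 1, the lowest array, and 0.72 after quantile normalization.

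Id1 stood at 10.08, 11.53 and 10.74 on low salt and 11.36, 11.45 and 11.01 on high salt. It shared its lowest array with Id3, but low salt replicate 2 was the highest of the 6 arrays, and the difference was 0.49 ± 0.37, or 0.14 without low salt replicate 1. Id2 stood at 9.89, 9.59 and 10.53 on low salt and 9.92, 9.49 and 10.00 on high salt, a difference of -0.20 ± 0.28. Id4, the member least tied to BMP signals, stood at 8.31, 6.83 and 7.58 on low salt and 7.83, 7.43 and 7.47 on high salt, a difference of 0.01 ± 0.38, and its sign turned after median centring.

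**Figure D5:**
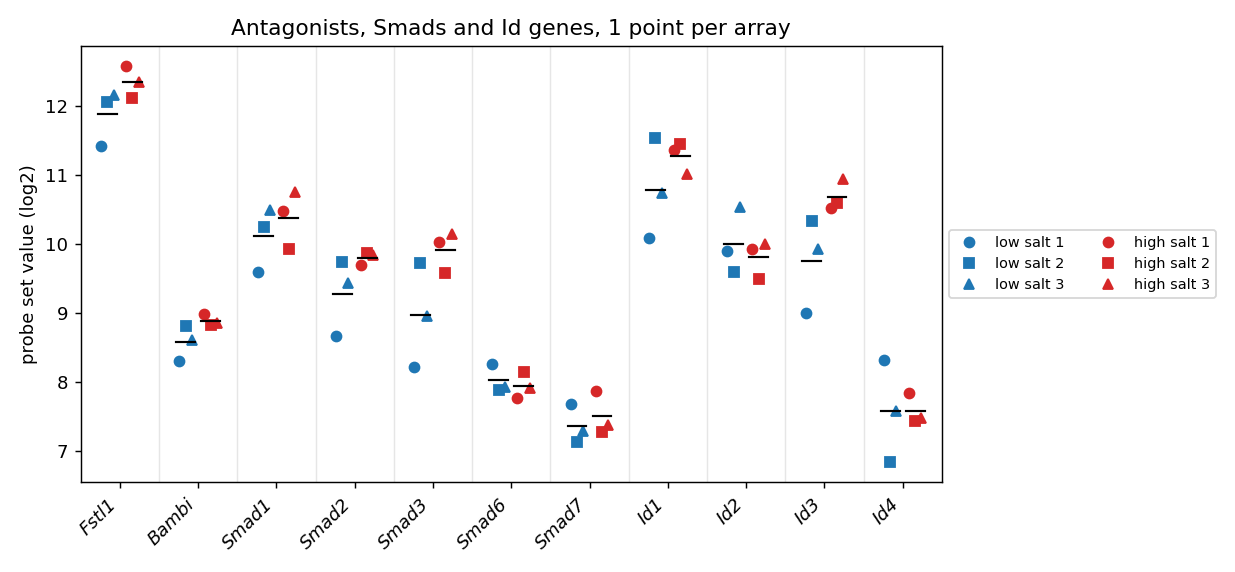
Probe set value in log2 units (vertical axis) of 11 antagonists, Smads and Id genes on each array, with blue points for low salt, red points for high salt, a symbol for each replicate number and a black line at the mean of each diet. Red points lie above all blue points for Id3 and, by a narrow margin, for Bambi. The blue circle (low salt replicate 1) lies lowest for Smad1, Smad2, Smad3, Id1 and Id3. Heights are not comparable between genes.

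The windows before the starts of Id1 (chr3:161671314-161671563, plus strand, GRCr8) and Id3 (chr5:153656041-153656290, plus strand, GRCr8) are shown together because the genes are paralogs and BMP targets whose diets separated for Id3 alone of the pair, although the difference between the genes was not tested. Neither window holds GGCGCC, so neither has capitals.
Id1: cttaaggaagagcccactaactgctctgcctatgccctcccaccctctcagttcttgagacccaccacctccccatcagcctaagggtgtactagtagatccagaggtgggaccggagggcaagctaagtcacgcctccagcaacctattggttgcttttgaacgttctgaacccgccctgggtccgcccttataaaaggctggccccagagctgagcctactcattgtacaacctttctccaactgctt
Id3: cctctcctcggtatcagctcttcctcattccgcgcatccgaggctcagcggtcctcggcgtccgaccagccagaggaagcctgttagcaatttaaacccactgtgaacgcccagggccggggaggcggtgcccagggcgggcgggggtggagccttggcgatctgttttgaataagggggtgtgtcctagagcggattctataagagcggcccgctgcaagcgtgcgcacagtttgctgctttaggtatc
Such windows were found in RefSeq for 37 of the 44 members. The letters GGCGCC, their own reverse complement, occurred for 13 of these 37 members. Over 27457 RefSeq genes with windows of the same length they occurred for 9.72%. That set is not limited to the 10411 genes represented on the arrays, so it is unlike the background used elsewhere here. The member windows were also richer in G and C, with a median of 67% against 51.2%. The Smad palindrome GTCTAGAC occurred for 0 of 37 members and 0.2% of the RefSeq genes. CAGAC, the core Smad box, occurred on either strand for 9 of 37 members and 44.8% of those genes (the palindrome does not contain CAGAC). A match of letters is a description and shows no binding.

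Among nuclear co-regulators and other responsive genes no diet was separated. Tgif1, a homeodomain repressor of Smad activity, stood at 7.65, 8.18 and 8.20 on low salt and 8.33, 8.15 and 8.48 on high salt, a difference of 0.31 ± 0.19. Skil, which encodes the Smad repressor SnoN, stood at 11.27, 11.91 and 11.69 on low salt and 11.63, 11.55 and 11.94 on high salt, a difference of 0.08 ± 0.20 whose sign turned under both scalings. Tsc22d1, a leucine zipper gene found as induced by TGF-beta, stood at 12.43, 13.60 and 13.12 on low salt and 13.21, 13.47 and 13.17 on high salt, a difference of 0.23 ± 0.30. Tgfb1i1, which encodes the focal adhesion protein Hic-5 of smooth muscle, stood at 11.75, 10.94 and 11.54 on low salt and 11.25, 11.03 and 11.19 on high salt, a difference of -0.26 ± 0.22. Its order over the low salt arrays followed the smooth muscle marker mean in having low salt replicate 2 lowest, and without that array the difference was -0.49.

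The other genes of the pathway were read from a list of 77 genes, of which 54 were measured. Of these 43 were higher and 11 lower, with a median of 0.23 (60.0% of all genes were higher), and 0 passed an adjusted p of 0.05 (limma, Benjamini-Hochberg). At an unadjusted limma p below 0.05 stood 9 genes, all higher, where 5.72% of all genes were higher and 0.711% lower by that rule. The diets did not overlap for 14 of 54, all higher, against 8.64% of all genes. The median was 0.15 without low salt replicate 1, and the count at an unadjusted limma p below 0.05 was 5 without high salt replicate 1. After median centring the count of genes without overlap was 8 higher and 2 lower (4.01% and 13.9% of all genes) and 34 of 54 differences were above 0, and after quantile normalization it was 7 higher and 2 lower (4.74% and 7.66%) with 32 of 54 above 0. Some marker classes of other cells also had higher means on the high salt diet, while all 8 smooth muscle markers were lower. Of the pericyte markers 3 were higher and 3 lower, as were the neuron markers. The mean of 2 red blood cell markers was 11.18 to 11.79 on low salt and 12.04 to 12.86 on high salt. The mean of 6 microglia and macrophage markers was 8.82 to 9.40 on low salt and 9.35 to 9.73 on high salt. Of those 6 markers 4 were higher and 2 lower, Cd68 (-0.06 ± 0.31) and Itgam (-0.03 ± 0.20). The largest difference among them was that of C1qa, a complement gene of macrophages, at 1.19 ± 0.34 without overlap. The part of cell makeup in the pathway counts was not tested. Members of this list had been seen with their values before it was written, so that its counts are not independent support for a direction.

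The counts by role are read against the 60.0% of all genes that were higher, or 70.6% of those above the 40th percentile of level. Among genes of TGF-beta latency and activation 10 of 11 were higher. Itgb5, a partner of the alpha v integrin that can free TGF-beta from its latent complex, stood at 8.97, 9.27 and 9.40 on low salt and 10.11, 9.54 and 10.05 on high salt, a difference of 0.68 ± 0.20 with no overlap. Mmp14, a membrane protease that can also release the ligand, differed by 0.74 ± 0.20. The latent TGF-beta binding protein Ltbp1 stood at 9.58, 10.48 and 10.70 on low salt and 11.34, 10.45 and 11.45 on high salt, a difference of 0.83 ± 0.39, with high salt replicate 2 inside the low salt range. Of 10 extracellular modulators 7 were higher. Fmod, which encodes the TGF-beta binding proteoglycan fibromodulin, differed by 0.40 ± 0.15 without overlap, and decorin (Dcn), a relative that also binds TGF-beta, by -0.56 ± 0.37. For Fmod the diets overlapped after quantile normalization.

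Of 15 intracellular regulators 13 were higher. Nedd4l, a ubiquitin ligase that removes active Smads, stood at 6.84, 7.38 and 7.03 on low salt and 7.67, 7.45 and 7.65 on high salt, a difference of 0.51 ± 0.16. Tgif2, the paralog of Tgif1, differed by 0.45 ± 0.17, also without overlap. For Nedd4l the diets overlapped after median centring and after quantile normalization. Of 14 genes known to respond to TGF-beta or BMP 12 were higher, among them Ccn2 (1.11 ± 0.32), Tgfbi (0.50 ± 0.12), Fn1 (0.95 ± 0.33) and Junb (1.04 ± 0.26). Each had an unadjusted limma p below 0.05 and no overlap in the deposited values. For Tgfbi the diets overlapped after quantile normalization. The 2 lower ones were the contractile genes Acta2 (-0.63 ± 0.30) and Tagln (-0.09 ± 0.16). The collagens Col1a1 (0.06 ± 0.14) and Col3a1 (0.05 ± 0.24), which TGF-beta induces in many cells, differed by less than 1 SE. Pmepa1, a TGF-beta target that feeds back on the Smads, differed by 0.09 ± 0.65 and had the widest spread of low salt values in the list, from 9.36 on replicate 2 to 12.03 on replicate 1.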

How the data were processed

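Gene expression was measured on 6 Affymetrix rat arrays, 1 per pool of 3 rats, after 2-cycle amplification. The deposited table held log2 values per probe set. Per the submitters' processing notes the authors used RMA (background correction, normalization between arrays and a summary over probes). The RMA version was not given in the sources used here. The log base is not stated, and 2 was inferred from the range of values.

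Of 15923 probe sets, 57 controls were left out. Names came from the platform annotation (12783 probe sets with 1 symbol), and all 44 members matched RefSeq by Entrez identifier. Limma (version 3.58.1, R version 4.3.3; lmFit and eBayes) compared 3 arrays with 3 without a block, with Benjamini-Hochberg adjustment over 15866 probe sets, and was tested on simulated data. No test was run on a list of genes. Given in full were members without overlap between diets or with an unadjusted p below 0.05, the brightest member of each role, and further members described by role. Members, roles, the pathway list and markers were chosen with earlier results of these data known. The replicates are pools of separate rats, and their number limits the precision. Some arteries were snap frozen and others stored in a preservative, without a record per sample.

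The alternatives changed the scaling (median centring or quantile normalization), kept only probe sets at or above the 40th percentile of level, used a trended variance, weighted the arrays, took the replicate number as a block, left out each array, or averaged the probe sets of a gene.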

Additional observations from a re-analysis of the deposited data

How the results depend on the processing

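Under every alternative run, 0 members and 0 other pathway genes passed an adjusted p of 0.05, and so did 0 probe sets (limma, Benjamini-Hochberg), with 366 to 2722 probe sets at an unadjusted p below 0.05 against 846 in the deposited values. Members above 0 numbered 25 to 36 and their median 0.05 to 0.31, the latter over the 31 members above the 40th percentile of level. Arrays of the same number deviated from their diet means with correlations of 0.04, -0.27 and 0.04, and no low salt array correlated best with its own number. With 3 arrays per diet these correlations cannot decide whether the numbers pair the samples, and the labels name no pairing. With the replicate number as a block the median stayed at 0.19, 0 members passed and 4 stood at an unadjusted p below 0.05 (limma), against 2 without it. That count was 11 with array weights and 12 without low salt replicate 2, where adjusted p values (limma, Benjamini-Hochberg) began at 0.0756 and 0.0501 over all probe sets and at 0.212 and 0.110 over the members. Array weights leaned on low salt replicate 3 (weight 4.15, against 0.295 and 0.440 for replicates 1 and 2).

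None of the following members was called, and the cause of the turned signs was not tested. After median centring the difference was -0.03 for Gdf10, -0.05 for Skil, -0.06 for Inhba and Tgfb1, -0.07 for Fst, -0.09 for Acvr1, -0.10 for Nog and -0.12 for Id4. After quantile normalization it was -0.02 for Fst, -0.03 for Smad5, -0.08 for Eng, -0.10 for Id4, -0.13 for Skil and 0.02 for Inhbb. With array weights it was -0.01 for Smad1, -0.03 for Bmpr2 and Smad5, -0.04 for Acvr1, -0.05 for Eng, -0.10 for Inhba and -0.22 for Tgfb3. With the mean of probe sets it was -0.01 for Smad7 and -0.08 for Smad5. With 1 array left out, the range was -0.07 to 0.19 for Tgfb1, -0.19 to 0.49 for Tgfb3, -0.53 to 0.68 for Eng, -0.13 to 0.16 for Acvr1, -0.22 to 0.06 for Acvr2a, -0.31 to 0.12 for Bmpr1a and -0.11 to 0.76 for Bmpr2. It was -0.21 to 0.05 for Inha, -0.21 to 0.28 for Inhba, -0.12 to 0.06 for Inhbb and -0.03 to 0.09 for Nog. It was -0.0035 to 0.66 for Smad4, -0.11 to 0.35 for Smad5, -0.19 to 0.03 for Smad6 and -0.04 to 0.30 for Smad7. It was -0.41 to 0.06 for Id2, -0.36 to 0.37 for Id4, -0.09 to 0.22 for Skil and -0.08 to 0.51 for Tsc22d1. The sign of the other 22 members held under each alternative that measured them. The 13 members below the 40th percentile of level were not measured under that filter.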
